A study of Homo sapiens with 6 samples.

Results

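A set of 10 genes that p53 is known to switch on was followed in FT282 cells made to express BORIS and in FT282 cells with an empty vector (EV): CDKN1A, SESN1, SESN2, PHLDA3, BBC3, BAX, TP53I3, MDM2, RRM2B and GDF15. They were chosen by name, with earlier results of these data known, and all 10 were found among the 23278 rows of the deposited expression table. BORIS, the protein of the CTCFL gene, is a germ-line paralog of the insulator protein CTCF. FT282 is an immortalised secretory cell line of the human fallopian tube, used here as a clonal derivative, and BORIS or the empty vector was carried stably. Each of the 6 groups held 1 sample: BORIS ChIP-seq in BORIS cells, CTCF ChIP-seq in BORIS cells, CTCF ChIP-seq in EV cells, an input of EV cells (not used here), RNA-seq of BORIS cells and RNA-seq of EV cells. No value therefore has a replicate error, no test could be made, and every difference describes these libraries. FT282 is also known, from the origin of the line and not from the labels, to have been immortalised with telomerase and a mutant form of p53, which limits it as a model of p53 activity.

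p53 is a transcription factor that is held low by MDM2 and accumulates after DNA damage and other stress. It then binds response elements in its target genes, which stop the cell cycle, start cell death, repair DNA, adjust metabolism and, through MDM2 itself, end the response. High-grade serous carcinoma is thought to arise from secretory cells of the fallopian tube.

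The labels were checked first. CTCFL stood at 53.3 FPKM in BORIS cells and 0.00532 FPKM in EV cells, and CTCF at 20.8 FPKM in BORIS cells and 21.1 FPKM in EV cells. FPKM is a fragment count scaled to transcript length and library size. The authors' deposited table left CTCFL unmarked (q = 0.484). Of the secretory markers, PAX8 stood at 72.5 FPKM in BORIS cells and 71.3 FPKM in EV cells and KRT7 at 885 and 1050 FPKM, while OVGP1 and EPCAM were under 1 FPKM in both. FOXJ1 of ciliated cells and CD3E of T cells were listed at 0 in both libraries. Other markers of such cells were present. In BORIS and EV cells the ciliated markers TUBB4B and CAPS stood at 396 and 445 FPKM and at 1.11 and 1.47 FPKM. The leukocyte markers ITGAM and CD68 stood at 3.75 and 3.16 FPKM and at 2.26 and 1.48 FPKM, and the endothelial marker CDH5 at 30.2 and 35.2 FPKM. The BORIS list held 23653 peaks, the CTCF list of BORIS cells 44625 and the CTCF list of EV cells 43162, and read depth was unknown.

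Start regions of 5 of the genes are shown for their CG content or for a motif found in them. Each is the 250 bases before a gene start, from RefSeq (GRCh38.p14), written 5′ to 3′ along the gene. In MDM2 (chr12:68807922-68808171, plus strand) and SESN2 (chr1:28259268-28259517, plus strand), 2 genes with a BORIS peak over the start of their hg19 span, capitals mark CG dinucleotides. The builds were not joined, so the place of the printed bases relative to the peaks was not tested. In CDKN1A (chr6:36678464-36678713, plus strand) capitals mark a match to a CTCF core motif, in SESN1 (chr6:109008989-109009238, minus strand) a match to the p53 half-site consensus, and in GDF15 (chr19:18385908-18386157, plus strand) a TATA box. The CDKN1A match lies on the strand opposite to the gene, so its printed letters are the reverse complement of the motif.
MDM2: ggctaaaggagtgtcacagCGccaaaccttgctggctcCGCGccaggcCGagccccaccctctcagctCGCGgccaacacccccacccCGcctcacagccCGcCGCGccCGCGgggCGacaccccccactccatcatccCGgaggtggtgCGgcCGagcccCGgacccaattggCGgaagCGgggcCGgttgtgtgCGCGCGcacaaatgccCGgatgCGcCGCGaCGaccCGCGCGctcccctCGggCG
SESN2: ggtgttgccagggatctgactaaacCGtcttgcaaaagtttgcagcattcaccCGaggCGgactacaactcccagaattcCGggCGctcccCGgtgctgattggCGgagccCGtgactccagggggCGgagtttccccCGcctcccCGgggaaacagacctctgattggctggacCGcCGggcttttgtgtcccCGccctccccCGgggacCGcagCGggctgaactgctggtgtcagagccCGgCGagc
CDKN1A: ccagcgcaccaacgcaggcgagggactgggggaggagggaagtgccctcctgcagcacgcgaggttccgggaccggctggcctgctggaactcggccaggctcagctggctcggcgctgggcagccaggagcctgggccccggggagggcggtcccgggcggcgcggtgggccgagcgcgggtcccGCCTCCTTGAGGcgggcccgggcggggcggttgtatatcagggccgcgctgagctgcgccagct
SESN1: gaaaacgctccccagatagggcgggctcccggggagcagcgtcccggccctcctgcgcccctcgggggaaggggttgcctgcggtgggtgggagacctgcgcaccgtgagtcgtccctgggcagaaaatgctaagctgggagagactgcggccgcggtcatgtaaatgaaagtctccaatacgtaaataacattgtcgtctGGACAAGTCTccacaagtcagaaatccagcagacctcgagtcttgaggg
GDF15: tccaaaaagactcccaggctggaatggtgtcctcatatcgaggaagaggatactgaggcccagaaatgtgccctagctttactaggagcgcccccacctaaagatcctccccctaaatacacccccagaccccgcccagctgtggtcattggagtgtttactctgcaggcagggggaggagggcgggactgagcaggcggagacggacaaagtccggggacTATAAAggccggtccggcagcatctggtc

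For RefSeq, 8 of the 10 genes had entries, with 13 start windows between them, and PHLDA3 and RRM2B had none. The windows searched ran from 250 bases before to 50 bases after each start, on both strands. The CTCF core motif, spelled as CC, any 3 bases, AG, any 2 bases and GGC, was found in 1 of the 13 windows, that of CDKN1A, and in 10.6% of all 35116 windows. The p53 half-site consensus was found in 1, a downstream start of SESN1, and in 6.63% of all windows. TATAAA was found in 1, that of GDF15, and in 11.5% of all windows. A match is a description of the letters, and no match says only that these letters are not in these windows. The outer MDM2 window held 39 CG dinucleotides and the SESN2 window 25, against a median of 14 over all windows. The first windows of the other genes held 38 (BAX), 29 (CDKN1A), 28 (SESN1), 11 (GDF15), 9 (TP53I3) and 5 (BBC3). BAX had no BORIS peak over its span, and TP53I3 had the strongest BORIS peak of the set. A link between CG content and BORIS peaks was not tested.

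In BORIS cells the cell cycle inhibitor CDKN1A, the membrane-bound Akt inhibitor PHLDA3 and the mitochondrial pore-former BAX stood lower than in EV cells, TP53I3 stood higher, and the other genes were close to equal or near 0. Difference is given as log2((BORIS + 1)/(EV + 1)) from FPKM, and a gene was counted as lower or higher when it reached 0.5 in size. Of the 9 genes with at least 1 FPKM in either library, 2 were lower by this rule, CDKN1A and PHLDA3, and 0 were higher. With a pseudocount of 5 FPKM in place of 1, PHLDA3 stood at -0.48 and only CDKN1A passed, 1 of the 9. Over all 12477 genes with 1 FPKM, 2.32% were lower and 3.23% higher by the same rule. Among the 6 with at least 10 FPKM in both libraries, 2 were lower and 0 higher, against 1.34% of all such genes in each direction. Marks of significance in the authors' deposited table fell on CDKN1A, PHLDA3 and BAX, 3 of the 9, all lower, beside 6.39% of all genes marked lower and 5.43% marked higher. The median log2 ratio of the 9 genes was -0.16 and 7 of them were below 0, against a median of 0.00 and 50.1% below 0 over all genes. The genes were chosen with earlier results of these data known, so nothing particular to them is drawn from these counts. A count from 9 genes is small, and a difference between 2 libraries with no replicate behind it may be technical.

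**Figure D1:**
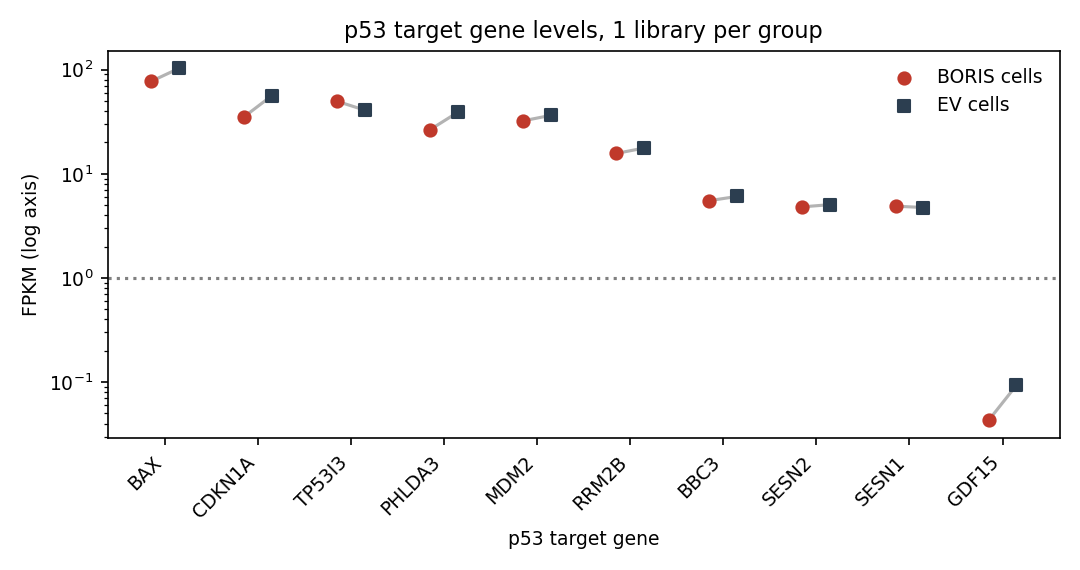
FPKM (log axis) of the 10 p53 target genes in the BORIS library (red circles, left of each pair) and the EV library (dark squares, right), ordered by EV level. BAX, CDKN1A and PHLDA3 stand lower in BORIS cells, TP53I3 stands higher at 49.7 against 40.8 FPKM, and GDF15 lies below the dotted line at 1 FPKM.

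Of the genes that slow growth, CDKN1A encodes p21, the inhibitor of cyclin-dependent kinases through which p53 halts the cell cycle. It stood at 35.3 FPKM in BORIS cells and 56.5 FPKM in EV cells, a log2 ratio of -0.67. BORIS cells thus held 62.4% of the EV level, and 1.51% of all genes tested had a ratio as low or lower. Among the 6578 genes with at least 10 FPKM in both libraries that share was 0.912%. In the authors' deposited table its q-value was 0.000817.

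The sestrins SESN1 and SESN2 restrain the growth kinase complex mTORC1 and protect against oxidants. SESN1 stood at 4.89 FPKM in BORIS cells and 4.75 FPKM in EV cells (log2 ratio 0.03). For SESN2 the values were 4.82 FPKM in BORIS cells and 5.06 FPKM in EV cells (log2 ratio -0.06). Both ratios lay in the middle of all genes, since 60.3% of genes had a ratio at or below that of SESN1 and 34.3% at or below that of SESN2. Their q-values in the authors' deposited table were 0.923 and 0.838.

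Among the genes of cell death, PHLDA3 stood at 26.6 FPKM in BORIS cells and 39.2 FPKM in EV cells, a log2 ratio of -0.54. Only 2.07% of all genes were as low or lower. BAX, which permeabilises the outer mitochondrial membrane, stood at 77.2 FPKM in BORIS cells and 103 FPKM in EV cells, a log2 ratio of -0.41. It was the most abundant of the 10 in both libraries, and 3.45% of all genes had a ratio as low or lower. BBC3 encodes PUMA, a BH3-only protein that frees BAX to act, and stood at 5.53 FPKM in BORIS cells and 6.07 FPKM in EV cells (log2 ratio -0.11). BBC3 therefore differed little, with 22.3% of genes at or below its ratio. Its row shares a span with MIR3190 and MIR3191, and how reads were divided among them is not known. BAX was 13.9 times the level of BBC3 in BORIS cells and 16.9 times in EV cells.

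TP53I3, a quinone oxidoreductase first known as PIG3, went the other way. It stood at 49.7 FPKM in BORIS cells and 40.8 FPKM in EV cells, a log2 ratio of 0.28, and 6.93% of all genes had a ratio as high or higher. It carried no mark in the authors' deposited table (q = 0.0747). The order of CDKN1A and TP53I3 differed between the libraries, as CDKN1A was 0.71 times the level of TP53I3 in BORIS cells and 1.38 times in EV cells. The lower level of CDKN1A made up the larger part, at -21.3 FPKM against 8.83 FPKM for TP53I3.

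The remaining genes serve feedback, repair and signalling. MDM2, the ubiquitin ligase that degrades p53, stood at 32.3 FPKM in BORIS cells and 36.5 FPKM in EV cells (log2 ratio -0.17). RRM2B, the p53-inducible subunit of ribonucleotide reductase that supplies nucleotides for repair, stood at 15.7 FPKM in BORIS cells and 17.7 FPKM in EV cells (log2 ratio -0.16). Their ratios were alike, with 14.2% of all genes at or below that of MDM2 and 15.3% at or below that of RRM2B, and neither carried a mark in the authors' deposited table (q = 0.262 and 0.299). PHLDA3 stood below MDM2 in BORIS cells, at 0.82 times its level, and above it in EV cells, at 1.07 times.

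GDF15, a secreted stress cytokine of the TGF-beta family, stood at 0.0429 FPKM in BORIS cells and 0.0934 FPKM in EV cells. It was under 1 FPKM in both libraries, the authors' deposited table gave it no test, and no difference is drawn from these values. MIR3189, listed with the same span, was at 0 in both libraries. The 10 genes summed to 252 FPKM in BORIS cells and 309 FPKM in EV cells.

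**Figure D2:**
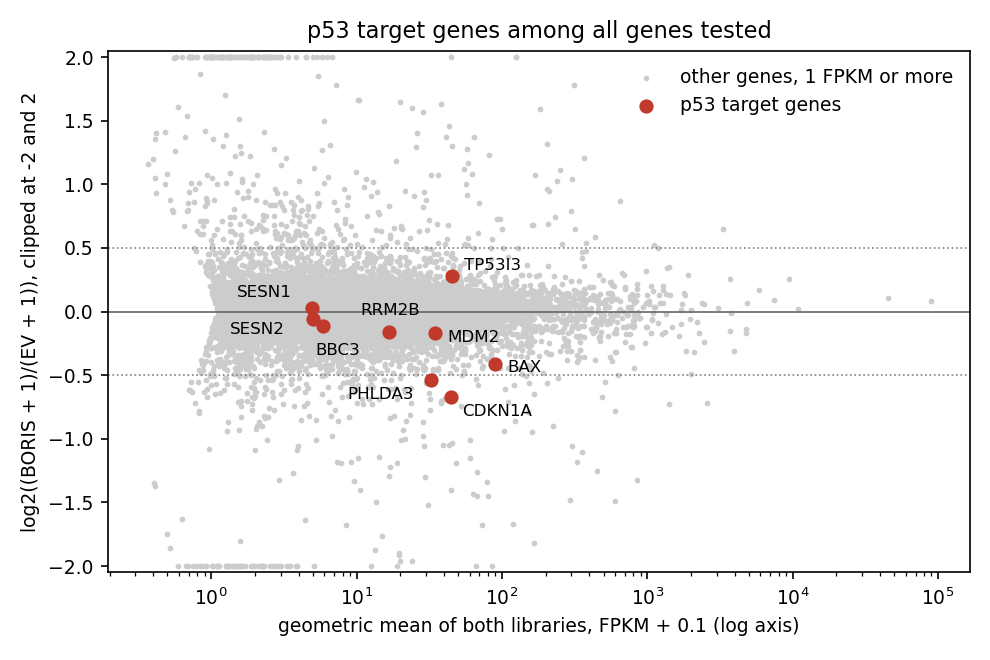
Log2 ratio of BORIS over EV (vertical, clipped at -2 and 2) against the geometric mean of both libraries in FPKM, with 0.1 added (log axis), for 9 p53 target genes (red) and all other genes with 1 FPKM (grey). CDKN1A at -0.67 and PHLDA3 at -0.54 lie below the dotted line at -0.5, while TP53I3 at 0.28 is the highest of the red points.

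The list of the p53 pathway's upstream genes was described in the same way. Of its 15 measured genes, 0 passed 0.5 log2 in either direction. The median was -0.05 and 10 were below 0 (66.7%, against 50.1% of all genes). ATM, the kinase that signals DNA breaks to p53, stood at 18.0 FPKM in BORIS cells and 14.3 FPKM in EV cells (log2 ratio 0.31). It was the 1 gene of this list that the authors' deposited table marked, as higher (6.67%, beside 5.43% of all genes). MDM4, the partner of MDM2, stood at 5.20 FPKM in BORIS cells and 5.49 FPKM in EV cells. PPP1R13L, an inhibitor of p53, had the lowest ratio of the list, -0.44, and was not marked.

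A wider list of 89 further p53 targets was placed beside the 10 genes. Of the 77 with at least 1 FPKM, 1 was lower by 0.5 log2 and 2 were higher, 47 were below 0, and the median log2 ratio was -0.05, against 0.00 for all genes. Marks in the authors' deposited table fell on 17 as lower (22.1%) and 4 as higher (5.19%), beside 6.39% and 5.43% of all genes. The list was chosen with earlier results of these data known, and nothing particular to it is drawn from these counts.

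Counts by role stand beside 50.1% of all genes below 0, 6.39% marked lower and 5.43% marked higher. The 7 DNA repair targets were all below 0, from -0.22 to -0.04, and 0 of them carried a mark in the authors' deposited table. POLH, a polymerase that copies past damage, stood at 13.4 FPKM in BORIS cells and 15.8 FPKM in EV cells. The damage sensor DDB2 stood at 29.8 FPKM in BORIS cells and 34.8 FPKM in EV cells. All 7 differences were small, and RPS27L stood nearest to 0 at -0.04.

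Of 7 measured arrest targets 3 were below 0 (42.9%, against 50.1% of all genes), with a median of 0.01. BTG2, an antiproliferative protein, stood at 15.5 FPKM in BORIS cells and 20.4 FPKM in EV cells, and E2F7, a repressor of E2F target genes, at 5.98 FPKM in BORIS cells and 7.53 FPKM in EV cells. Both were marked as lower in the authors' deposited table. GADD45A, which takes part in the DNA damage response, was nearly equal at 134 FPKM in BORIS cells and 133 FPKM in EV cells. The lower level of CDKN1A was thus not shared by GADD45A or by PLK2, at 593 FPKM in BORIS cells and 555 FPKM in EV cells.

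Cell death targets had a median of -0.05, with 8 of 13 below 0 (61.5%, against 50.1% of all genes). The nuclease AEN stood at 13.5 FPKM in BORIS cells and 17.3 FPKM in EV cells, and the decoy receptor TNFRSF10D at 21.3 FPKM in BORIS cells and 26.2 FPKM in EV cells. These 2 were marked as lower in the authors' deposited table. The death receptor TNFRSF10A stood at the other end, at 11.8 FPKM in BORIS cells and 10.4 FPKM in EV cells, and PMAIP1, which encodes the BH3-only protein NOXA, had a log2 ratio of 0.05. BAX therefore had the lowest ratio among the death genes after PHLDA3.

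Feedback targets had a median of 0.06, with 2 of 7 below 0 (28.6%, against 50.1% of all genes). ZMAT3, an RNA-binding protein, stood at 12 FPKM in BORIS cells and 15.7 FPKM in EV cells and was marked as lower in the authors' deposited table. The phosphatase PPM1D, which switches off p53 signalling, had a log2 ratio of -0.03, CCNG1 one of 0.06 and TP53INP1 one of 0.12.

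Targets in metabolism went both ways, with a median of -0.05 and 6 of 11 below 0 (54.5%, against 50.1% of all genes). CPT1C stood at 1.20 FPKM in BORIS cells and 2.13 FPKM in EV cells (log2 ratio -0.51), the only gene of the wider list lower by 0.5. SCO2, needed to assemble cytochrome oxidase, stood at 4.54 FPKM in BORIS cells and 2.74 FPKM in EV cells (log2 ratio 0.57), unmarked in the authors' deposited table. FDXR, a mitochondrial reductase, stood at 6.25 FPKM in BORIS cells and 8.39 FPKM in EV cells. Of the 11 genes, 4 carried a lower mark in the authors' deposited table (36.4%, beside 6.39% of all genes) and 0 a higher mark.

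Secreted and membrane targets had a median of -0.09, with 9 of 16 below 0 (56.2%, against 50.1% of all genes). Lower marks in the authors' deposited table fell on 4 (25.0%) and higher marks on 2 (12.5%), beside 6.39% and 5.43% of all genes. The receptor EDA2R stood at 10.2 FPKM in BORIS cells and 13.4 FPKM in EV cells. CD82, a tetraspanin, was higher at 115 FPKM in BORIS cells and 95.3 FPKM in EV cells. The remaining targets had a median of -0.11, with 12 of 16 below 0 (75.0%). DDIT4, which restrains mTORC1 under stress, stood at 10.7 FPKM in BORIS cells and 6.21 FPKM in EV cells, and its log2 ratio of 0.70 was the highest of the wider list.

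**Figure D3:**
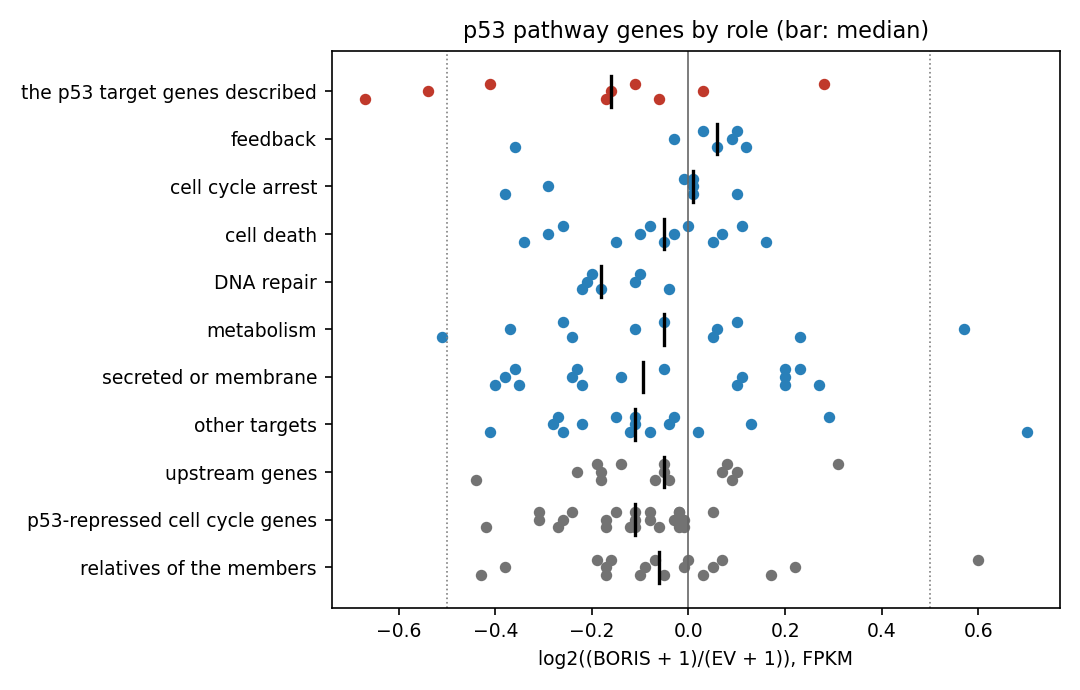
Log2 ratio of BORIS over EV for each measured gene (points) by role, with the median as a black bar and dotted lines at -0.5 and 0.5. The p53 target genes described (red) have a median of -0.16, the DNA repair targets all lie left of 0, and the p53-repressed cell cycle genes lie left of 0 with 1 exception.

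Genes that p53 and p21 are known to repress in arrested cells were described in the same way. Of 24 cell cycle genes 23 were below 0, against 50.1% of all genes, 0 passed 0.5 log2 in either direction, and the median was -0.11. MKI67, the proliferation marker, stood at 46.2 FPKM in BORIS cells and 62.1 FPKM in EV cells, and ECT2, the exception, at 68.3 FPKM in BORIS cells and 65.8 FPKM in EV cells. Of the 24 genes, 5 (20.8%) carried a lower mark and 0 a higher mark in the authors' deposited table, beside 6.39% and 5.43% of all genes. CDKN1A and 23 of the 24 cell cycle genes thus had log2 ratios below 0, and a link between them was not tested.

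Relatives of the 10 genes give a comparison within families. Of 18 measured, 12 were below 0 (66.7%, against 50.1% of all genes), with a median of -0.06. Only 1 passed 0.5, PHLDA1 at 5.68 FPKM in BORIS cells and 3.40 FPKM in EV cells (log2 ratio 0.60). PHLDA1 and PHLDA3 therefore stood on opposite sides of 0. The lowest ratios were those of INHBA (-0.43) and CDKN2C (-0.38). INHBA stood at 63.3 FPKM in BORIS cells and 85.7 FPKM in EV cells, and CDKN2C at 26.1 and 34.2 FPKM. Marks in the authors' deposited table fell on 2 of the 18 as lower (11.1%), INHBA and CDKN2C, and on 1 as higher (5.56%). Over all genes these shares were 6.39% and 5.43%. The other p21-like inhibitors CDKN1B and CDKN1C had log2 ratios of 0.00 and -0.19, BAK1, the other pore-former, -0.17, and the anti-death genes MCL1 and BCL2L1 -0.01 and -0.16. The sestrin SESN3 was under 1 FPKM in both libraries.

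Other measures also moved between the libraries. Fibroblast markers summed to 99.0 FPKM in BORIS cells and 127 FPKM in EV cells, with 3 of 3 measured below 0 and DCN and LUM under 1 FPKM in both. Secretory markers summed to 1440 FPKM in BORIS cells and 1690 FPKM in EV cells, with 5 of 6 measured below 0, against 50.1% of all genes. The secretory markers include KRT8 and KRT18, whose tests the authors' deposited table lists as failed. Ciliated cell markers summed to 397 FPKM in BORIS cells and 447 FPKM in EV cells, nearly all TUBB4B, a tubulin that is also found in other cells. Leukocyte markers summed to 6.04 and 4.68 FPKM and endothelial markers to 31.5 and 36.6 FPKM in BORIS and EV cells. The endothelial sums were nearly all CDH5. The part of these markers in the lower values of CDKN1A, PHLDA3 and BAX was not tested. The cells came from a clonal line, so the sums are not read as numbers of cells of other types. In bulk RNA, fewer cells in a given state and less RNA per cell cannot be told apart.

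CTCF and BORIS peaks were then placed on the 10 loci, each taken as the span in the expression table (hg19) widened by 10 kb. The BORIS list had 14 peaks there, at all 10 genes, the CTCF list of BORIS cells 15 and that of EV cells 14, each at 9 genes. A BORIS peak in such a window was common, as 82.5% of all genes with 1 FPKM had one, and 82.9% and 80.9% had a CTCF peak in BORIS and EV cells. With its centre within 1 kb of an end of the span, a BORIS peak was found at 6 of the 9 measured genes (66.7%, Wilson 95% interval 35.4 to 87.9, counting error only), against 57.8% of all genes. CTCF peaks lay that near at 2 of 9 in both cell populations, against 34.3% of all genes in BORIS cells and 30.8% in EV cells. The background lies inside each of these intervals, which for CTCF ran from 6.32 to 54.7%. With 9 genes picked by name the intervals are too wide to decide between likeness and difference, and neither is drawn. At the gene start alone, 4 of the 8 genes with a matched strand had a BORIS peak within 1 kb. GDF15, under 1 FPKM, was among the 8 and had none there. The share over strand-matched genes with at least 1 FPKM, a set that leaves out such genes as GDF15, was 54.2%. In the wider target list 50 of 76 genes had a BORIS peak near an end, or 65.8% (54.6 to 75.5).

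Of the 14 BORIS peaks, 7 overlapped a CTCF peak of BORIS cells, or 50.0%, against 65.6% of all BORIS peaks. Summits of such pairs lay between 2 and 281 bp apart, with a median of 28 bp. Of the 15 CTCF peaks in BORIS cells 12 were also called in EV cells (80.0%, against 90.8% of that list), which left 3 called in BORIS cells alone. Of the 14 in EV cells 12 were also called in BORIS cells (85.7%, against 94.2% of that list), which left 2. A BORIS peak overlapped 7 of the 15 CTCF peaks in BORIS cells and 7 of the 14 in EV cells, against 35% and 34.4% of those lists. Scores have no stated unit, so they are given as percentiles within a list, which say nothing of a change between lists.

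At CDKN1A (chr6:36644236-36655116) the peaks lay inside the gene and not at its outer start. The CTCF peak of BORIS cells (chr6:36648202-36648748) and that of EV cells (chr6:36648221-36648659) were at percentiles 96.1 and 82.3 of their lists, and their summits lay 7 bp apart. A BORIS peak (chr6:36648261-36648722) sat on them with its summit 2 bp from the CTCF summit of BORIS cells, at percentile 84.3. A second, weaker BORIS peak (chr6:36647632-36648120, percentile 13.3) stood beside it without CTCF. The strong summits lay about 4 kb from the outer start, at 4155 bp for BORIS. In RefSeq the CDKN1A start printed above lies 2251 bases inside the outer start of the gene. Builds were not joined, so whether its CTCF core match lies under a peak was not tested.

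PHLDA3 (chr1:201434621-201438299) had a BORIS peak (chr1:201437573-201438456) whose summit lay 16 bp from the high end of the span, at percentile 64.1, with no CTCF peak in either list. The only CTCF peaks in the window were weak. A pair was called in BORIS cells alone, at percentiles 3.04 and 10.7 and 9567 and 2318 bp from the span, and 1 in EV cells alone, at percentile 5.23 and 7683 bp away. These account for 3 of the 5 CTCF peaks at the 10 loci that were called in 1 cell population alone.

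BAX (chr19:49458116-49465055) had no peak of any list over its span. The nearest BORIS peak (chr19:49468544-49469503, percentile 32.2) lay 4071 bp past the span and 561 bp from an end of the neighbour FTL, the ferritin light chain. The CTCF peaks of BORIS and EV cells lay 9321 and 9339 bp past it, within 14 bp of an end of GYS1. FTL stood at 421 FPKM in BORIS cells and 370 FPKM in EV cells (log2 ratio 0.19). Over the spans alone, the genes marked as lower had BORIS and CTCF inside CDKN1A, BORIS alone at an end of PHLDA3 and neither over BAX. Within 10 kb of the span all 3 had both BORIS and CTCF peaks. A link between these peaks and the lower levels was not tested.

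TP53I3 (chr2:24300302-24308085, minus strand), the gene with the highest ratio, had the strongest BORIS peak of the set. This peak (chr2:24306678-24307919) was 1242 bp wide, at percentile 98.3, with its summit 458 bp inside the gene start. CTCF summits of BORIS and EV cells lay at the same base, 739 bp inside the start, at percentiles 84.4 and 82.5, and a weak CTCF peak beside them (chr2:24306766-24306999, percentile 5.83) was called in EV cells alone. A weak BORIS peak at the far side lay 63 bp from an end of the neighbour SF3B14.

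MDM2 (chr12:69201970-69239212, plus strand) had BORIS and CTCF together at 2 places. A BORIS peak at the outer start (chr12:69201252-69202184) was at percentile 96.7 and ran from 718 bp before the start to 214 bp after it. CTCF summits lay 20 bp before the start in BORIS cells and 11 bp after it in EV cells, at percentiles 51.6 and 53.7. The p53-responsive promoter of MDM2 is known to lie farther in, in the first intron, and RefSeq (GRCh38.p14) places inner starts 845 and 852 bases inside the gene. The builds were not joined, so their place relative to this peak was not tested. The other place (chr12:69224067-69224317 for BORIS, percentile 45.8) lay 22208 bp inside, with CTCF in both cell populations.

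**Figure D4:**
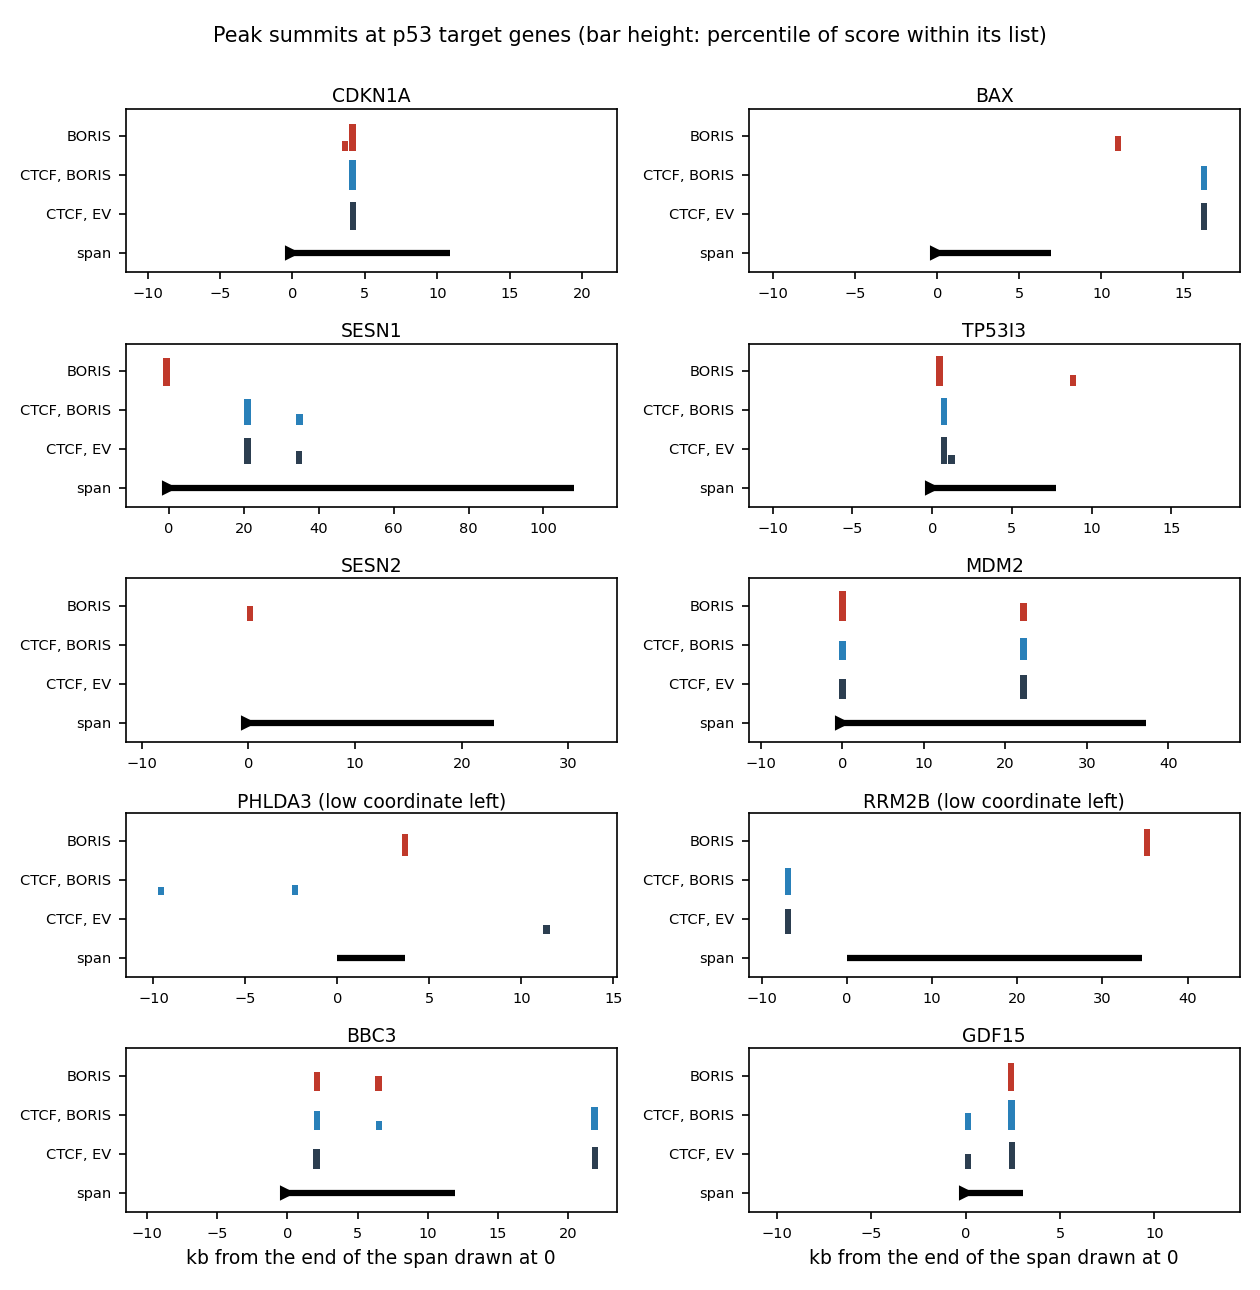
Peak summits of the 3 lists along the 10 genes, in kb from the gene start (arrowhead) or, for PHLDA3 and RRM2B, from the low-coordinate end. Bars are drawn at a fixed width and rise with the percentile of the score within its list. CDKN1A, MDM2, TP53I3, BBC3 and GDF15 have BORIS and CTCF together, SESN2 has BORIS alone, and no peak lies over the BAX span.

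The sestrins differed from each other. SESN2 (chr1:28585962-28609002, plus strand) had a BORIS peak over its start (chr1:28585687-28586489, percentile 33.1) and no CTCF peak of either list within 10 kb, the only one of the 10 genes without CTCF. SESN1 (chr6:109307639-109415708, minus strand) had a BORIS peak (chr6:109416183-109417137, percentile 89.2) 660 bp before its outer start, without CTCF. Its summit lay 13 bp from an end of the neighbour CEP57L1, so it cannot be given to SESN1 alone. CEP57L1 stood at 6.39 FPKM in BORIS cells and 5.77 FPKM in EV cells. Inside SESN1, CTCF peaks at 20962 and 34774 bp in BORIS cells were also called in EV cells, with no BORIS peak.

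BBC3 (chr19:47724078-47736023, minus strand) held 2 BORIS peaks, both with CTCF. One (chr19:47733781-47734039, percentile 48.2) lay 2127 bp inside the start with CTCF in both cell populations. At the other (chr19:47729295-47729690, percentile 31.0) a CTCF peak (chr19:47729371-47729657) was called in BORIS cells alone, at percentile 6.24. This was the only CTCF peak called in BORIS cells alone at the 10 loci that overlapped a BORIS peak.

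RRM2B (chr8:103216728-103251346) had a BORIS peak without CTCF (percentile 84.7) 612 bp past the high end of its span. A CTCF peak called in both cell populations lay past the low end, 6902 bp away in BORIS cells, at percentile 85.3 in BORIS cells and 73.2 in EV cells. GDF15 (chr19:18496967-18499986, plus strand), although under 1 FPKM, held CTCF peaks in both cell populations at its start, 111 bp inside in BORIS cells and 112 bp inside in EV cells. A second CTCF place near the far end, at percentiles 95 and 82.9 in BORIS and EV cells, carried a BORIS peak (chr19:18499221-18499575, percentile 88.2). A BORIS peak thus stood both at the abundant TP53I3 and at the nearly silent GDF15.

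Levels and peaks are set side by side for the wider list. Its 50 genes with such a BORIS peak near an end had a median log2 ratio of -0.02, and the 26 without one -0.15. Over all genes the medians were 0.017 with such a peak and -0.024 without. Both pairs stood in the same order, and the difference was not tested.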

How the data were processed

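Gene levels are FPKM values computed by the authors, 1 column per library, as deposited. Build hg19 and the tools Cufflinks 2.0.0, TopHat2 and Bowtie are named, without roles, per the submitters' processing notes. The p-values and q-values are the authors' own, and their mark of significance goes with q at or under 0.0498. The labels' protocols name 2 RNA kits without saying which library each made, so a kit difference, if any, cannot be told apart from BORIS. The deposited peak score has no stated unit, and for the peaks a caller and threshold are not given in the sources used here. Of the table's rows, 28 carried dates as names and were left out.

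Ratios used a pseudocount of 1 FPKM, which understates differences of low genes, and genes with at least 1 FPKM in either library. Peak overlap needed 1 bp. Peak starts were written 1-based, and gene spans as deposited. Strand came from RefSeq by symbol. Calls and joins were tested on simulated data. The members, lists, thresholds and rules were chosen with earlier results of these data known. Named were the members, CTCFL, CTCF and genes from the 3 highest and 3 lowest of each other list. CCNG1, GADD45A, PMAIP1, MDM4, SESN3, CDKN1B, BAK1, MCL1, BCL2L1, the markers under 1 FPKM and the neighbouring genes fall outside this rule and were chosen after their values were seen. Python 3.11.15, pandas 2.3.3, numpy 2.4.6 and scipy 1.17.1 were used. Alternatives were other pseudocounts, filters, scalings, thresholds, distances and overlap rules. Some genes that the rule names are not reported here.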

Additional observations from a re-analysis of the deposited data

How the results depend on the processing

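Of 62 recomputed log2 ratios of single genes, 0 changed sign. This count tests little, because another pseudocount or filter cannot change the sign of a ratio. Only the scalings could, and their factors were near 1, at 0.997 for the median and 0.994 for the upper quartile. The median of the 9 measured genes was -0.17 with a pseudocount of 0.1 FPKM, -0.15 with libraries scaled to the same upper quartile and -0.13 with a pseudocount of 5 FPKM. It was -0.17 over the 8 genes left by a minimum of 5 FPKM, -0.17 over the 8 left without rows that share a span (added after seeing the data) and -0.14 over all 10 with no filter. That of the wider list was -0.07 with a pseudocount of 0.1 FPKM, -0.04 with one of 5 FPKM and -0.08 with a minimum of 5 FPKM. Genes of the 10 lower by the threshold numbered 1 with a pseudocount of 5 FPKM, where PHLDA3 stood at -0.48, and 0 at a threshold of 1 log2. In the wider list, 0 were lower and 0 higher with a pseudocount of 5 FPKM or a threshold of 1, 0 lower and 1 higher with a minimum of 5 FPKM, and 17 lower and 4 higher at a threshold of 0.25. At 0.5 the wider list had 1 lower and 2 higher. The share of all genes passing 0.25 was not counted, so nothing is drawn from the counts at that threshold.

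Of the 10 genes, GDF15 included, 7 had a BORIS peak centre within 1 kb of an end, and 4 of the 8 with a known strand had one at the gene start (added after seeing the data). CTCF peaks lay within 1 kb of an end at 3 genes in both cell populations, within 5 kb at 6 in BORIS cells and 5 in EV cells, and within the widened span at 9 in each. In the spans alone, 1 CTCF peak was called in BORIS cells alone and 1 in EV cells alone. With spans widened by 50 kb, 35 CTCF peaks were called in both, and 18 of 28 BORIS peaks had CTCF. With the upper part of each list by score, 0 CTCF peaks were called in BORIS cells alone and 1 in EV cells alone, and 4 of 7 BORIS peaks had CTCF. The cause of these moves was not tested beyond the wider windows and shorter lists themselves. No paired analysis was possible because each group held 1 sample. Unknown depth limits the low values, GDF15 most of all, and there was no BORIS precipitation in EV cells.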

Other observations

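MIR3190, a microRNA gene listed with the same span as BBC3, stood at 21.0 FPKM in BORIS cells and 0.585 FPKM in EV cells. It carried no mark in the authors' deposited table. Division by a short transcript length can turn a few reads into a high FPKM, and the read numbers are unknown.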
